A study of Mus musculus with 6 samples.

Results

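The Rab GTPases are small membrane-bound switches that direct vesicle traffic, and 59 of the 35420 genes restored from the deposited table carry a Rab symbol, that is, Rab, a number and at most a letter and a digit. Of these, 43 had a mean of at least 1 FPKM (fragments scaled by gene length and by library total) over the 6 libraries and were compared between groups. Bone marrow-derived macrophages (BMDMs) had been grown from femoral marrow of C57BL/6 mice with M-CSF for 7 days. The 3 Ctrl libraries came from untreated cultures and the 3 ZA libraries from cultures at 12 h after zoledronic acid (ZA), a nitrogen-containing bisphosphonate used against bone loss. All 6 libraries share the genotype, the marrow source and the M-CSF culture, the ZA concentration used for them is not given in the sources used here, and nothing says that the 3 cultures of a group came from separate animals, so that p-values measure only the spread between these cultures. The deposited values correspond to between 41230600 and 42155808 fragments per library.

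A Rab protein bound to GTP recruits effectors to a particular membrane, a GTPase-activating protein returns it to the GDP form, and an exchange factor loads it again. To hold on to a membrane, most Rab proteins need geranylgeranyl lipids on cysteines at the carboxyl end, which Rab escort protein and Rab geranylgeranyl transferase attach. Nitrogen-containing bisphosphonates inhibit farnesyl diphosphate synthase, the enzyme upstream of this lipid. RNA libraries measure the transcripts and not the lipid on the proteins.

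The ends of the coding sequences are shown because the lipid-accepting cysteines lie there. The set holds the most abundant member (Rab7), Rab7b, Rab43 and Rab32 from those with an unadjusted p-value under 0.05, and Rab8a as a member with a lone cysteine codon in the stretch shown. Each line gives the last 36 coding bases before the stop codon, 5′ to 3′ on the coding strand, from GENCODE transcripts of build GRCm38, with cysteine codons in capitals.
Rab7, chr6:88000438-88000473, minus strand: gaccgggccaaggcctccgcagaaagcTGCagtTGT
Rab7b, chr1:131711659-131711694, plus strand: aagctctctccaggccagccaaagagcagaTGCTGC
Rab43, chr6:87792593-87792628, minus strand: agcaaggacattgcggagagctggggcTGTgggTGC
Rab32, chr10:10546305-10546340, minus strand: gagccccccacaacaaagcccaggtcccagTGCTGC
Rab8a, chr8:72180099-72180134, plus strand: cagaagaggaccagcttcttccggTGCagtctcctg
All 5 stretches lie within a coding exon. These coordinates belong to the reference alone, since the submitters' notes name another build, mm9, and the deposited table gives no positions.

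The 59 members fell into 4 kinds of ending in the transcript chosen for each. In 15 members, with Rab7b and Rab32, a pair of cysteine codons came last, and in another 15, with Rab11a, the pair was followed by 1 to 3 further codons. In 20 members, with Rab7 and Rab43, the last codon and the one before its neighbour encoded cysteine, and in 9 members, with Rab8a, the last cysteine codon was followed by 3 others. By summed FPKM in Ctrl, endings with the pair last made up 38.7% ± 0.400 (SD, n = 3) of all Rab transcripts, the spaced pair 27.9% ± 0.217, the pair before other codons 22.1% ± 0.146 and the cysteine before 3 other codons 11.2% ± 0.165. In ZA these shares were 39.0% ± 0.431, 27.9% ± 0.367, 21.8% ± 0.111 and 11.3% ± 0.183, so that no kind of ending moved by more than 1 percentage point. The pair before other codons, a kind that holds Rab5c, summed to 377, 375 and 376 FPKM in Ctrl and 369, 370 and 368 in ZA. All its ZA sums were lower, with a difference of -1.783%. Sums of the other kinds overlapped between groups, and no test was made on them.

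The libraries had the markers of macrophages, with all 7 of the listed genes above 1 FPKM. The summed level of the 7 macrophage genes was 23403 to 27310 FPKM in Ctrl and 24287 to 27766 in ZA, against 35.6 to 50.9 and 31.5 to 37.1 for 11 neutrophil and progenitor genes, with Ly6g at 0 in all libraries. Sums of the 7 lymphocyte genes (2.61 to 3.25 and 2.17 to 2.42 FPKM), the 5 dendritic cell genes (0.437 to 0.640 and 0.463 to 0.666) and the 5 erythroid genes (0.423 to 2.66 and 0.777 to 1.94) were low. The 5 stromal genes summed to 18.2 to 32.7 FPKM in Ctrl and 16.3 to 23.5 in ZA, and the 6 osteoclast genes, several of which macrophages also express, to 185 to 204 and 161 to 185. At an unadjusted p-value under 0.05, 2 of 7 macrophage genes tested were higher in ZA (7.50% of all genes were), while 4 of 6 neutrophil and progenitor genes, 2 of 3 osteoclast genes and 1 of 4 stromal genes were lower (4.85% of all genes were). None had an adjusted p-value under 0.05 by limma, but by voom on the recovered fragments the macrophage genes Adgre1 (adjusted p = 0.0114) and Csf1r (adjusted p = 0.00878) did. Whether these lists have a part in any Rab value was not tested, and in bulk RNA fewer cells of a type and less RNA per cell cannot be told apart.

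Rab transcripts spanned a wide range of levels in these macrophages. Mean FPKM was 100 or more for 4 members, from 10 to 100 for 28, from 1 to 10 for 11 and under 1 for 16. Rab7, which drives fusion of late endosomes with lysosomes, was the most abundant, with 269, 264 and 263 FPKM in Ctrl and 266, 265 and 255 FPKM in ZA. It alone held 15.6% ± 0.260 (SD, n = 3) of the summed Rab FPKM in Ctrl and 15.5% ± 0.388 in ZA, and the 10 most abundant members together held 62.0% ± 0.131 and 61.6% ± 0.289. In Rab7, 18.8% of the 150-base stretches of the transcript are shared with the pseudogene Rab7-ps1 or the opposite-strand gene Gm5577, so that some of its fragments may belong to them.

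Below Rab7 came Rab5c of the early endosome (150 to 158 FPKM over the 6 libraries), the ER-to-Golgi pair Rab1b (118 to 123) and Rab1a (103 to 113), Rab14 (79.7 to 82.7), Rab8b (76.2 to 80.8), Rab31 (72.7 to 77.2), Rab7b (57.7 to 61.5), Rab10 (54.4 to 57.6) and Rab8a (48.5 to 53.7). In this order, the ranges of neighbours overlapped only between Rab14 and Rab8b and between Rab8b and Rab31. FPKM is a level per length of gene, so members can be set beside each other only as far as the lengths used are right. Lengths recovered with the fragments equalled the GENCODE transcript in Rab10 (3513 bases) but not in Rab7 (2622 against 1275) or Rab22a (1909 against 7155). The order of members and their shares depend on these lengths, while the comparison of groups for 1 gene does not.

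**Figure D1:**
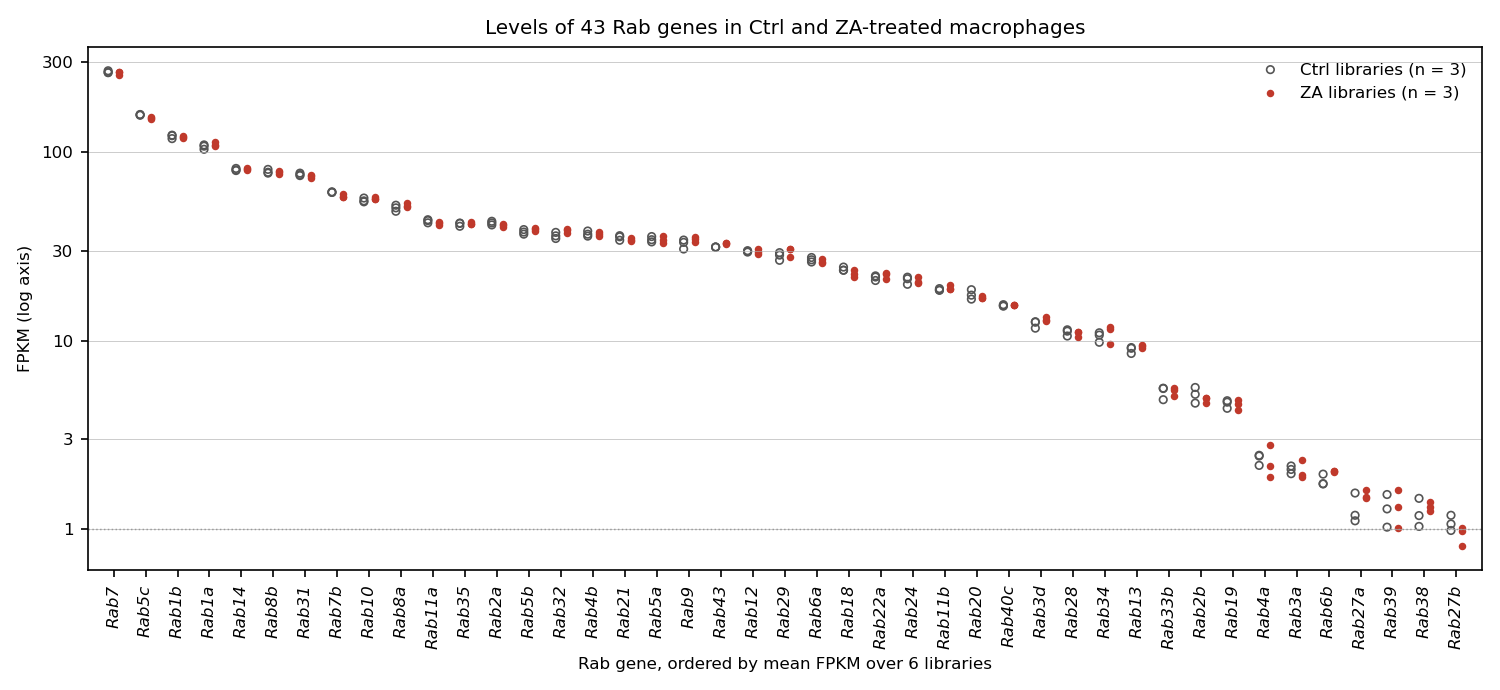
FPKM (log axis) of the 43 Rab genes with a mean of at least 1 FPKM, ordered by that mean, with an open circle for each of the 3 Ctrl libraries and a filled circle for each of the 3 ZA libraries. Rab7 lies highest, at 255 to 269 FPKM, and the circles of both groups lie close together at almost every gene compared with the distance from the highest to the lowest member.

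At the other end, Rab38 (1.04 to 1.46 FPKM), Rab39 (1.02 to 1.62) and Rab27b (0.815 to 1.19) were just above the minimum of 1 FPKM. Rab27b passed through its Ctrl libraries, with a mean of 1.08 FPKM in Ctrl and 0.935 in ZA. Just below lay Rab23, a regulator of Hedgehog signalling, with 0.935 to 1.15 FPKM, then Rab42 (0.475 to 0.590) and Rab44 (0.139 to 0.242). Rab23 fell short through its Ctrl libraries, with a mean of 0.944 FPKM in Ctrl and 1.04 in ZA. All its ZA values lay above all its Ctrl values, but at this level it was not among the members tested. Rab3c and Rab9b had 0 fragments in each of the 6 libraries, which allows up to 3 fragments in a library by counting error. The other members under 1 FPKM, Rab3b, Rab15, Rab17, Rab25, Rab26, Rab30, Rab33a, Rab36, Rab37, Rab39b and Rab40b, were between 0 and 0.204 FPKM in all libraries.

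The summed transcript level of the family differed between the groups by less than the spread between cultures. The 59 members summed to 1693, 1689 and 1710 FPKM in Ctrl and 1689, 1696 and 1697 FPKM in ZA, or 1697 ± 10.9 and 1694 ± 4.53 (mean ± SD, n = 3), a difference of the means of -0.203%. The ranges of both groups overlapped.

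By membrane step, the largest sum was that of the late endosome, lysosome and autophagy members, 438 ± 2.11 FPKM in Ctrl and 435 ± 4.36 in ZA. Recycling and exocytosis members summed to 417 ± 3.58 and 420 ± 4.15, and those of the ER, the Golgi and retrograde transport to 380 ± 6.52 and 382 ± 6.80. Early endosome and phagosome members summed to 380, 378 and 381 FPKM in Ctrl and 375, 372 and 370 in ZA, with all ZA libraries below all Ctrl libraries and a difference of -2.002%. For regulated secretion the sums were 55.2, 52.2 and 56.0 FPKM in Ctrl and 56.8, 57.2 and 58.3 in ZA, with all ZA libraries above and a difference of 5.39%. These sums follow their most abundant members, Rab5c and Rab32, which are given below, and no test was made on them.

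**Figure D2:**
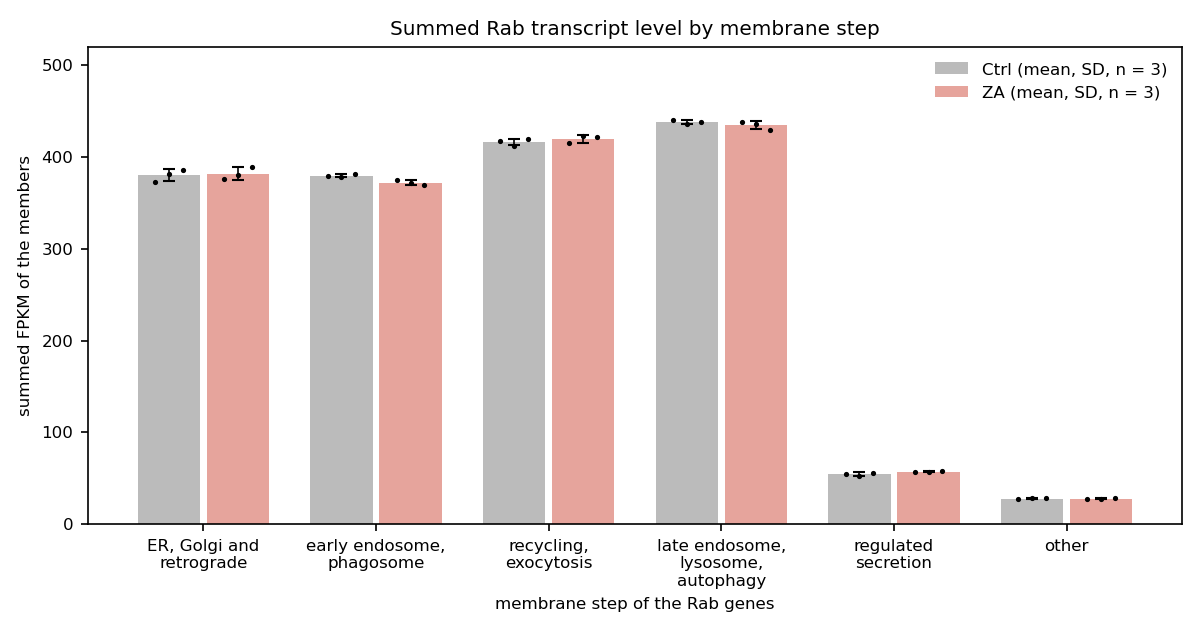
Summed FPKM of the Rab genes of each membrane step, with bars for the mean, whiskers for the SD (n = 3) and a point for each library, in Ctrl (grey) and ZA (red). The bars of a step are of nearly equal height, as for the early endosome at 380 and 372 FPKM and for recycling at 417 and 420 FPKM.

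Among the 43 members tested, 0 had an adjusted p-value under 0.05 by limma with Benjamini-Hochberg adjustment over all 9800 genes, among which 36 did (0.367%). At an unadjusted p-value under 0.05, 2 members were higher in ZA, where 7.50% of all genes were, and 2 were lower, where 4.85% were. By voom on the recovered fragments 0 members passed the adjusted threshold. At the unadjusted one 3 were higher and 3 lower, where 815 and 497 of all 9800 genes were. The members added by voom were Rab6b, higher, and Rab18, lower (unadjusted p = 0.0292 and 0.0465 by voom, 0.0683 and 0.064 by limma). With values centred on the library median, 1 member was higher and 3 were lower, while for all genes the split of 735 higher and 475 lower became 508 and 664. The Ctrl and ZA values did not overlap in 5 members (11.6%), against 18.1% of all genes tested. By sign alone, 21 members were higher and 22 lower. The median log2 fold change of the members was -0.0010, beside 0.0100 for all genes tested.

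The precision behind these values is that of close replicates. The median coefficient of variation within groups was 3.03% for the members tested and 4.01% for all genes. Fragments per library ranged from 68 to 29416 among the members tested. On the log2(FPKM + 1) scale, the 95% interval of the difference lay wholly within 0.2 of 0 for 35 of the 43 members and within 0.5 for all 43, with bounds reaching from -0.26 to 0.32. This scale understates the change of members with low FPKM, so that for these the log2 ratio of the mean FPKM is also given.

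**Figure D3:**
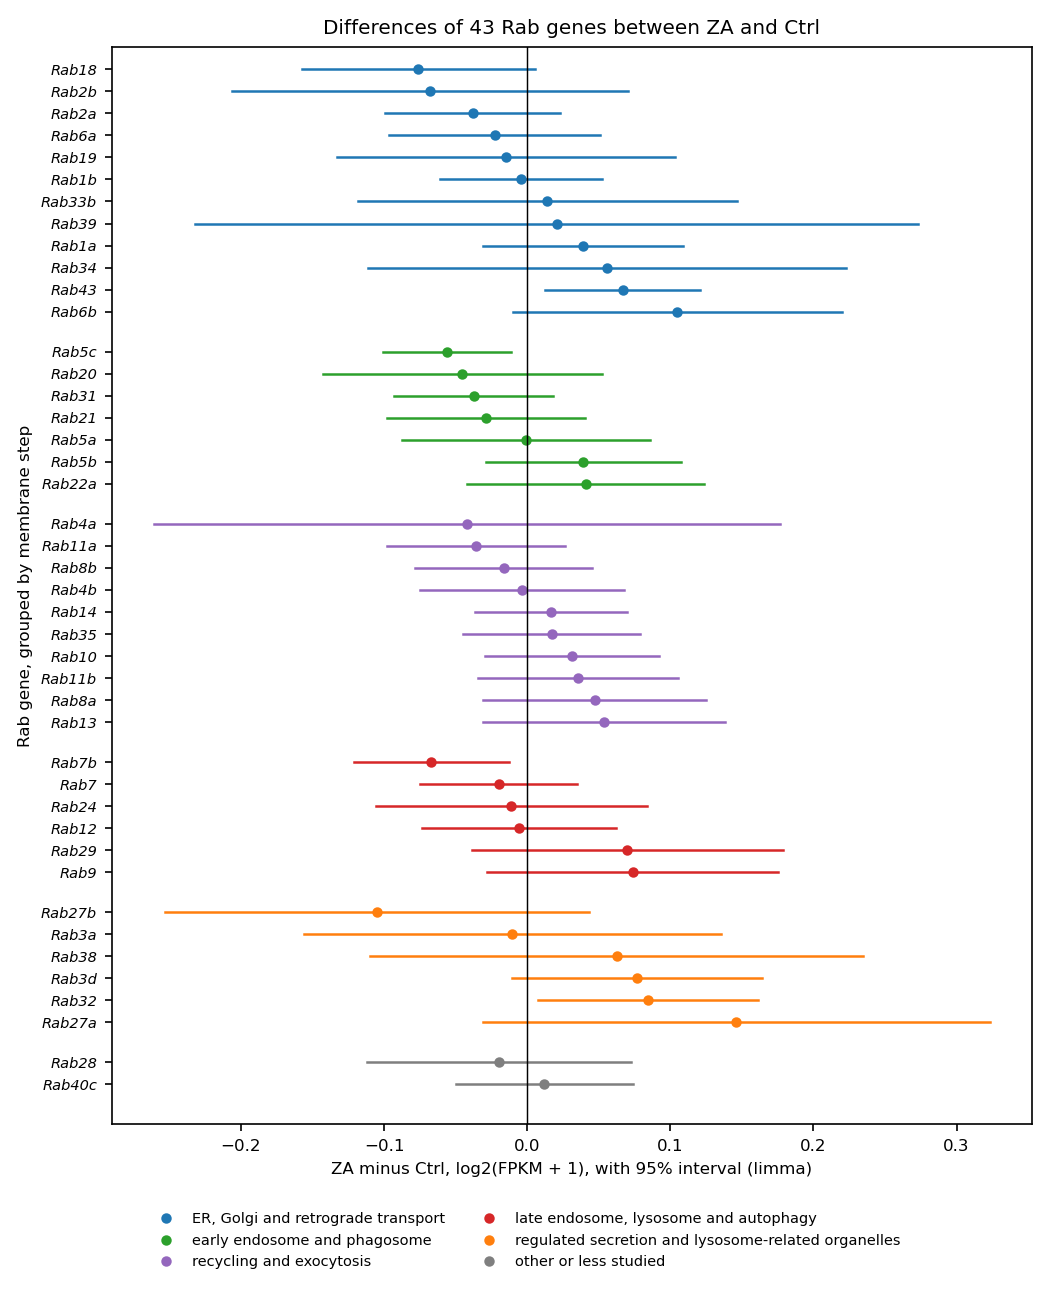
Difference between ZA and Ctrl in log2(FPKM + 1) for the 43 Rab genes tested (points), with the 95% interval from limma (lines), grouped by membrane step. The intervals of Rab5c and Rab7b lie below 0, those of Rab43 and Rab32 above 0, and the other 39 include 0.

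Of the early endosome and phagosome members, Rab5c was the most abundant and had the largest test statistic. Rab5 proteins recruit the tethers and the phosphoinositide kinase that let early endosomes fuse. Rab5c had 157, 158 and 157 FPKM in the Ctrl libraries and 151, 153 and 150 in the ZA libraries. All 3 ZA values were below all 3 Ctrl values. The log2 fold change was -0.06 ± 0.02 (SE), with a 95% interval from -0.10 to -0.01 (unadjusted p = 0.0207, adjusted p = 0.304 by limma).

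Rab5a had 34.3, 33.4 and 35.6 FPKM in Ctrl and 35.9, 33.1 and 34.2 in ZA, with a log2 fold change of -0.0010 and overlapping groups. Rab5b had 38.8, 37.6 and 36.7 FPKM in Ctrl and 39.4, 38.9 and 38.0 in ZA, with a log2 fold change of 0.04 (adjusted p = 0.625 by limma). Of the summed Rab5 FPKM, Rab5c held 68.6% ± 0.373 (SD, n = 3) in Ctrl and 67.4% ± 0.617 in ZA. Rab31, which carries cargo from the trans-Golgi network to endosomes, had 75.9, 74.9 and 77.2 FPKM in Ctrl and 74.3, 72.7 and 75.2 in ZA, with a log2 fold change of -0.04 (95% interval -0.09 to 0.02). Of the 7 members of this step that were tested, 5 had a negative and 2 a positive fold change.

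Of the late endosome, lysosome and autophagy members, Rab7b had the largest statistic. It acts in transport from late endosomes to the trans-Golgi network and in the lysosomal degradation of TLR4 in macrophages. Rab7b had 61.5, 61.1 and 61.0 FPKM in Ctrl and 57.9, 59.6 and 57.7 in ZA. The 3 Ctrl values lay within 1 FPKM of each other, and all ZA values lay below them. The log2 fold change was -0.07 ± 0.02 (SE), with a 95% interval from -0.12 to -0.01 (unadjusted p = 0.0210, adjusted p = 0.304 by limma).

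Rab7 itself had overlapping groups, with a log2 fold change of -0.02 and a 95% interval from -0.07 to 0.03 (adjusted p = 0.771 by limma). Of the summed Rab7 and Rab7b FPKM, Rab7b held 18.7% ± 0.129 (SD, n = 3) in Ctrl and 18.2% ± 0.308 in ZA. Rab9, which returns mannose 6-phosphate receptors to the Golgi, had 33.2, 30.6 and 34.1 FPKM in Ctrl and 33.2, 34.4 and 35.6 in ZA, with a log2 fold change of 0.07 (95% interval -0.03 to 0.18). The other tested members of this step were Rab12, Rab24 and Rab29, between 19.9 and 30.6 FPKM in all libraries and with overlapping groups.

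Of the ER, Golgi and retrograde transport members, Rab43 had the largest statistic. It acts in traffic between the ER and the Golgi and in retrograde transport. Rab43 had 31.3, 31.3 and 31.4 FPKM in Ctrl and 32.6, 32.9 and 33.1 in ZA. The Ctrl libraries were almost equal and all ZA libraries lay above them. The log2 fold change was 0.07 ± 0.02 (SE), with a 95% interval from 0.01 to 0.12 (unadjusted p = 0.0213, adjusted p = 0.306 by limma). Of the 150-base stretches of the Rab43 transcript, 90.1% are also in the same-strand gene Gm45140, and the share of its fragments that came from Gm45140 cannot be told from this table.

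Rab1b and Rab1a, which carry cargo from the ER to the Golgi, were the most abundant of this step. Rab1b had 118, 123 and 122 FPKM in Ctrl and 119, 120 and 122 in ZA (log2 fold change -0.0045, 95% interval -0.06 to 0.05). Rab1a had 103, 107 and 109 FPKM in Ctrl and 107, 108 and 113 in ZA (log2 fold change 0.04, 95% interval -0.03 to 0.11). Both overlapped between groups.

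Rab2a, another ER-to-Golgi member, had 42.1, 41.1 and 42.9 FPKM in Ctrl and 41.3, 40.3 and 41.1 in ZA, which overlapped. Rab2b was far lower, with 5.20, 4.67 and 5.65 FPKM in Ctrl and 4.69, 4.96 and 4.98 in ZA, and 69.7% of its stretches are shared with Gm43766 and Tox4, which overlap it on the opposite strand. Whether the counting used strand is not given in the sources used here. Rab33b, which binds the autophagy protein Atg16l1, had 4.87 to 5.60 FPKM in Ctrl and 5.10 to 5.65 in ZA.

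Rab6a, which acts in transport within the Golgi and back to the ER, had 26.1, 27.6 and 26.8 FPKM in Ctrl and 27.2, 26.2 and 25.8 in ZA, with overlapping groups. Its paralog Rab6b had 1.74, 1.96 and 1.75 FPKM in Ctrl and 2.03, 2.04 and 2.01 in ZA. All ZA values of Rab6b lay above all Ctrl values, with a log2 fold change of 0.10 ± 0.05 (SE) and a log2 ratio of the means of 0.16 (unadjusted p = 0.0683, adjusted p = 0.450 by limma). Stretches shared with another gene also make up between 8.62% and 25.4% of the Rab6a, Rab11b, Rab20, Rab24 and Rab33b transcripts. The share of Rab6b in the summed Rab6 FPKM was 6.34% ± 0.274 (SD, n = 3) in Ctrl and 7.13% ± 0.156 in ZA.

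Of the 10 recycling and exocytosis members tested, 0 had an unadjusted p-value under 0.05, and in 0 of them were the groups apart. Rab14, which acts between the Golgi and endosomes, had 79.7, 80.3 and 81.8 FPKM in Ctrl and 80.3, 82.7 and 81.7 in ZA (log2 fold change 0.02, 95% interval -0.04 to 0.07). Rab10, which delivers GLUT4 and, in macrophages, TLR4 to the plasma membrane, had 54.4, 55.1 and 57.0 FPKM in Ctrl and 56.0, 56.6 and 57.6 in ZA (log2 fold change 0.03, 95% interval -0.03 to 0.09). Rab13, known from tight junctions, had the largest statistic of the step with 9.20, 8.56 and 9.12 FPKM in Ctrl and 9.37, 9.19 and 9.44 in ZA (log2 fold change 0.05, adjusted p = 0.590 by limma).

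Rab8a and Rab8b direct vesicles to the plasma membrane and the cilium. Rab8b had 80.8, 77.2 and 78.1 FPKM in Ctrl and 76.2, 79.2 and 78.0 in ZA, and Rab8a had 50.6, 48.5 and 52.2 in Ctrl and 51.0, 53.7 and 51.7 in ZA. Both overlapped between groups, and Rab8b held 61.0% ± 0.897 (SD, n = 3) of their sum in Ctrl and 59.9% ± 0.290 in ZA.

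Rab4 and Rab11 proteins mark fast and slow recycling endosomes. Rab4b, with 35.8, 38.1 and 36.7 FPKM in Ctrl and 36.7, 36.03 and 37.5 in ZA, held 94.0% ± 0.550 of the Rab4 sum in Ctrl and 94.1% ± 1.16 in ZA, though 75.4% of its stretches are shared with the same-strand gene Gm21983. Rab11a, with 43.7, 42.1 and 43.3 FPKM in Ctrl and 41.1, 42.6 and 42.2 in ZA, held 69.8% ± 0.260 and 68.7% ± 1.01 of the Rab11 sum, the rest being Rab11b at 18.5 to 19.8 FPKM.

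Of the members of regulated secretion and lysosome-related organelles, Rab32 was the most abundant and had the largest statistic. Rab32 helps to build lysosome-related organelles and acts against intracellular bacteria in macrophages. It had 35.9, 34.8 and 37.5 FPKM in Ctrl and 37.4, 38.4 and 39.0 in ZA. The groups overlapped by a narrow margin, since the lowest ZA library lay just under the highest Ctrl library. The log2 fold change was 0.08 ± 0.03 (SE), with a 95% interval from 0.0076 to 0.16 (unadjusted p = 0.0350, adjusted p = 0.362 by limma). Its close relative Rab38, known from pigment granules, had 1.46, 1.04 and 1.18 FPKM in Ctrl and 1.40, 1.31 and 1.25 in ZA, which overlapped.

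Rab3d, a regulator of secretory granule release, had 12.6, 11.7 and 12.5 FPKM in Ctrl and 12.8, 12.9 and 13.3 in ZA. All ZA values lay above all Ctrl values, with a log2 fold change of 0.08 ± 0.04 (SE) and a 95% interval from -0.01 to 0.16 (unadjusted p = 0.0774, adjusted p = 0.461 by limma). Rab3a had 1.97, 2.08 and 2.17 FPKM in Ctrl and 2.33, 1.91 and 1.94 in ZA, with overlapping groups.

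Rab27a and Rab27b tether secretory lysosomes and exosome-bearing endosomes at the plasma membrane. Rab27a had 1.56, 1.19 and 1.11 FPKM in Ctrl and 1.61, 1.48 and 1.47 in ZA. One Ctrl library reached into the ZA range, and the log2 fold change of 0.15 ± 0.08 (SE), which is 0.24 as a log2 ratio of the means, had a 95% interval from -0.03 to 0.32 (unadjusted p = 0.0940, adjusted p = 0.484 by limma). With all 6 libraries this fold change has the largest size among the members tested. That of Rab27a was 0.23 without Ctrl replicate 1, 0.12 without Ctrl replicate 2 and 0.09 without Ctrl replicate 3. Other members had a larger size when some libraries were left out. The largest was Rab6b without Ctrl replicate 2 (0.14), Rab32 without Ctrl replicate 3 (0.11) and Rab4a without ZA replicate 1 (-0.15, beside 0.12 for Rab27a). Rab27b had 1.19, 0.987 and 1.07 FPKM in Ctrl and 1.01, 0.815 and 0.980 in ZA, with overlapping groups, a log2 fold change of -0.11 ± 0.06 (SE) and a log2 ratio of the means of -0.21 (adjusted p = 0.544 by limma).

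The share of Rab27a in the sum of these paralogs was 56.7%, 54.6% and 51.0% in the Ctrl libraries and 61.4%, 64.5% and 60.0% in the ZA libraries. All ZA shares lay above all Ctrl shares, with means of 54.1% ± 2.92 and 62.0% ± 2.32 (SD, n = 3). The pair was singled out after its values were seen, Rab27b passed the minimum level through its higher Ctrl libraries, and the share is given as a description with no test. Shares were also apart between groups for Rab1, Rab5, Rab6, Rab7 and Rab11, which makes 6 of the 10 numbers with at least 2 tested genes. In these the means differed little between ZA and Ctrl, by 0.755 percentage points for Rab1a, -1.16 for Rab5c, -0.797 for Rab6a, 0.501 for Rab7 and -1.1 for Rab11a. No such count was made for shares of other genes, so this one has no background beside it and is a description only.

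**Figure D4:**
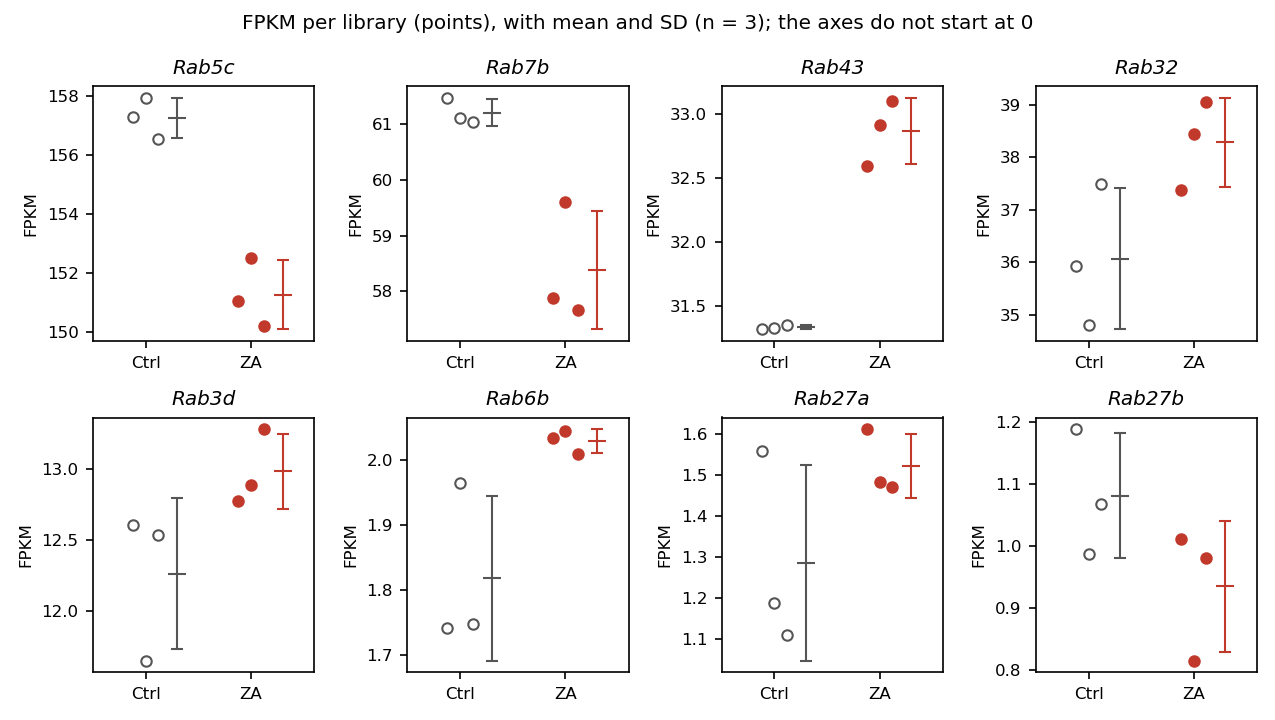
FPKM per library in Ctrl (open circles) and ZA (filled circles), with the mean and SD (n = 3) beside them, for the 4 Rab genes with an unadjusted p-value under 0.05 (Rab5c, Rab7b, Rab43, Rab32), the other 2 tested members whose groups were apart (Rab3d, Rab6b) and the Rab27 pair. The axes do not start at 0, and the difference of Rab5c, from a mean of 157 to 151 FPKM, is -3.82% of its Ctrl level.

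Rab40c and Rab28 were the tested members of less studied function. Rab40c, part of a ubiquitin ligase, had 15.3, 15.5 and 15.2 FPKM in Ctrl and 15.5, 15.5 and 15.5 in ZA. Rab28, found at cilia, had 10.6, 11.2 and 11.4 FPKM in Ctrl and 10.5, 11.1 and 11.2 in ZA. Their log2 fold changes were 0.01 and -0.02, with overlapping groups.

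The split among paralogs was therefore uneven and close between groups for most numbers. A single gene held nearly the whole sum for Rab9, Rab33b, Rab39 and Rab40c, whose namesakes were at or near 0. Rab3d held 85.4% ± 0.888 (SD, n = 3) of the Rab3 sum in Ctrl and 86.3% ± 1.52 in ZA, Rab2a held 89.1% ± 0.713 and 89.3% ± 0.410 of the Rab2 sum, and Rab1a held 46.9% ± 0.284 and 47.6% ± 0.424 of the Rab1 sum.

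**Figure D5:**
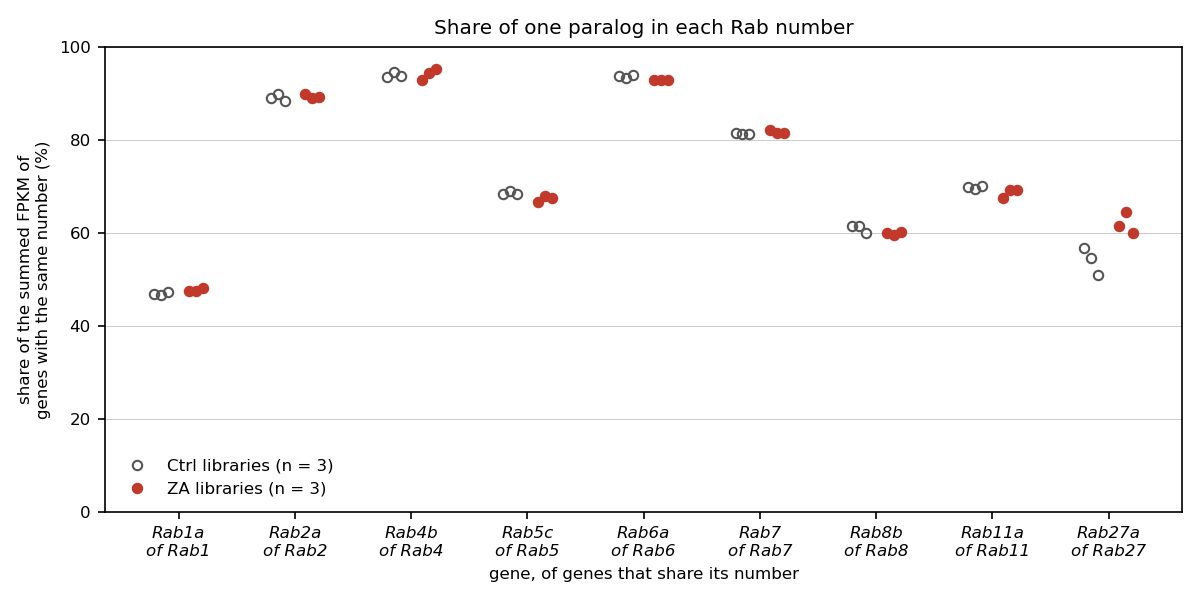
Share (%) of a named Rab gene in the summed FPKM of the genes with the same number, per library, in Ctrl (open circles) and ZA (filled circles). The shares span from about equal in Rab1 to above 90% for Rab4b and Rab6a, and the distance between the groups is widest for Rab27a, at means of 54.1% and 62.0%.

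The machinery that loads, prenylates and switches off Rab proteins was read from 134 listed genes, of which 107 were tested. Of these, 0 had an adjusted p-value under 0.05 by limma or by voom. At an unadjusted p-value under 0.05, 9 were higher in ZA (8.41%, beside 7.50% of all genes) and 1 was lower (0.935%, beside 4.85%). With values centred on the library median 7 were higher and 2 lower. The median over the 107 genes was a log2 fold change of 0.03, and by sign 76 were higher and 31 lower, or 67 and 40 after centring, beside 5579 and 4221 of all genes, or 4740 and 5060 after centring.

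All 7 genes of prenylation and membrane recycling were tested. At an unadjusted p-value under 0.05 by limma, 1 of them was higher in ZA (14.3%, beside 7.50% of all genes) and 0 were lower (beside 4.85%). The catalytic pair of Rab geranylgeranyl transferase overlapped between groups, Rabggta with 9.98, 11.02 and 10.4 FPKM in Ctrl and 10.5, 11.04 and 10.8 in ZA and Rabggtb with 20.1, 19.4 and 18.5 in Ctrl and 20.7, 21.3 and 18.0 in ZA. Their log2 fold changes of 0.04 and 0.04 had 95% intervals from -0.06 to 0.13 and from -0.10 to 0.18. The Rab escort proteins Chm (3.76 to 4.05 FPKM in Ctrl, 3.77 to 4.01 in ZA) and Chml (1.57 to 1.62 and 1.54 to 1.67) overlapped between groups.

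Gdi2, a GDP dissociation inhibitor that draws Rab proteins off membranes, had 200, 199 and 203 FPKM in Ctrl and 201, 205 and 204 in ZA (log2 fold change 0.02, adjusted p = 0.713 by limma). Rabac1, which takes Rab proteins from such an inhibitor to the membrane, had 153, 149 and 151 FPKM in Ctrl and 157, 159 and 157 in ZA, with all ZA values above all Ctrl values and a log2 fold change of 0.06 ± 0.02 (SE) (unadjusted p = 0.0159, adjusted p = 0.283 by limma).

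Of 32 exchange factors tested, 3 were higher (9.38%, beside 7.50% of all genes) and 1 lower (3.12%, beside 4.85%) at an unadjusted p-value under 0.05 by limma. Dennd1a, an exchange factor for Rab35, had 25.4, 25.4 and 25.2 FPKM in Ctrl and 26.6, 26.9 and 27.3 in ZA (log2 fold change 0.08, adjusted p = 0.240 by limma). Dennd2a, an exchange factor for Rab9, had 4.63, 3.96 and 4.02 FPKM in Ctrl and 3.85, 3.44 and 3.20 in ZA (log2 fold change -0.21, 95% interval -0.37 to -0.05, adjusted p = 0.274 by limma). Madd, which loads Rab3 and Rab27 proteins, had 16.2, 16.3 and 16.9 FPKM in Ctrl and 17.3, 17.6 and 18.0 in ZA (log2 fold change 0.09, adjusted p = 0.301 by limma). In these 3 genes the groups were apart, as in 21.9% of the exchange factors tested and 18.1% of all genes tested.

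Of 31 GTPase-activating proteins tested, 2 were higher (6.45%, beside 7.50% of all genes) and 0 lower (beside 4.85%) at the unadjusted threshold by limma. The adjusted threshold was passed by 0. Tbc1d10b, which acts on Rab35, had 27.7, 28.0 and 28.4 FPKM in Ctrl and 30.1, 29.8 and 29.99 in ZA. Its log2 fold change of 0.09 ± 0.02 (SE) had the lowest p-value among the regulators (unadjusted p = 0.00524, adjusted p = 0.194 by limma). Tbc1d4, which acts on Rab10 in insulin-responsive cells, had 2.20, 2.34 and 2.42 FPKM in Ctrl and 2.57, 2.58 and 2.64 in ZA (log2 fold change 0.11, adjusted p = 0.360 by limma).

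Of 37 effectors and modifiers tested, 3 were higher (8.11%, beside 7.50% of all genes) and 0 lower (beside 4.85%) at the unadjusted threshold by limma. The adjusted threshold was passed by 0. Rilpl2, which binds Rab proteins phosphorylated by the kinase Lrrk2, had 190, 209 and 204 FPKM in Ctrl and 216, 219 and 216 in ZA (log2 fold change 0.11, adjusted p = 0.258 by limma). Rufy1, an effector of Rab4 and Rab14, had 8.39, 8.44 and 8.37 FPKM in Ctrl and 8.84, 8.98 and 9.13 in ZA (log2 fold change 0.09, adjusted p = 0.322 by limma). Lrrk1, a kinase that phosphorylates Rab7, had 5.53, 5.65 and 5.81 FPKM in Ctrl and 6.01, 6.04 and 6.34 in ZA (log2 fold change 0.10, adjusted p = 0.356 by limma). All 3 had ZA values above all Ctrl values, and groups were apart in 16.2% of the effectors tested, beside 18.1% of all genes tested.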

How the data were processed

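Total RNA of BMDMs was sequenced as 150-base paired reads on an Illumina NovaSeq instrument. The labels name a VAHTS and a SMARTER library kit. The authors deposited a table of FPKM values per gene and library. The submitters' processing notes name the build mm9, and the aligner, the counting program, the annotation and the use of strand are not given in the sources used here. Most of the 35434 rows have lost the separators between symbol and values. They were split by what a number can look like (25393 rows with 1 possible reading) and by the requirement that whole fragments, scaled by length and library total, give every value of a row (10027 rows). The 11 intact rows were restored identically, 14 rows, none of them a Rab gene, were left out, and 3000 of 3000 simulated rows were restored exactly. The whole fragments also gave the library totals.

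ZA and Ctrl were compared by limma 3.58.1 (R 4.3.3) on log2(FPKM + 1), with eBayes and a trend, two-sided tests and Benjamini-Hochberg adjustment, for 9800 genes whose mean reached 1 FPKM. Replicate numbers were not used as a block. On simulated data, 100% of 200 genes changed 2-fold were called among 9800 genes, with 9 unchanged genes called. The simulation gave all genes the same spread and had no replicate effect. A 2-fold change is far larger than any Rab log2 fold change here (-0.11 to 0.15), so power for differences of that size was not tested. For a gene of 3422 bases, the median length, 0.0210 FPKM stands for 3 fragments. No library duplicated another of its group (chi-square per gene 3.52 to 9.73).

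The alternatives were voom on the recovered fragments, libraries left out in turn, the replicate number as a block, eBayes without the trend, quantile normalization, median centring, no minimum level or one of 5 FPKM, and a pseudocount of 0.1. Coding ends were read from GENCODE M21 (GRCm38), in which all 59 symbols matched, from the APPRIS principal transcript where there was one. Shared stretches are runs of 150 transcript bases found in another gene.

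The members, the role lists, the regulator lists and the marker lists were chosen with earlier results of these data known, and the lists were written by hand. The genes named with values are the Rab genes with an unadjusted p-value under 0.05, the 10 with the highest mean FPKM, in each role list the most abundant and the one with the largest statistic, paralogs with the same number, the 3 on either side of 1 FPKM, the prenylation and recycling factors, and at most 3 with the largest statistic of each other regulator list. Some items under this rule are not reported here. Python 3.11.15, NumPy 2.4.6, pandas 2.3.3 and Matplotlib 3.10.9 were used.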

Additional observations from a re-analysis of the deposited data

How the results depend on the processing

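Under all 14 alternatives, 0 Rab genes had an adjusted p-value under 0.05, the lowest adjusted p of a member being 0.218, and 0 regulators did. Rab5c, Rab7b, Rab43 and Rab32 kept the sign of their fold change in each of them, which was largely fixed in advance. They were picked from these same libraries. A change of the minimum level, the fit without a trend and the replicate block leave a fold change as it was. For Rab5c, Rab7b and Rab43, whose groups were apart, leaving out a library could not turn the sign. The other counts at an unadjusted p-value, which rest on few genes, moved more. Rab genes higher in ZA (main value 2) were 1 with centring and 1 with quantile normalization, and those lower (main value 2) were 0 without a trend. Of all 9800 genes tested, 508 were higher with centring, 574 were higher with quantile normalization and 433 were lower without a trend. Rab genes with groups apart (main value 5) were 9 with centring (20.9%, beside 17.5% of all genes) and 8 without a filter (14%, beside 13%), where Rab37 (52, 51 and 45 fragments in Ctrl, 17, 35 and 42 in ZA) was also lower at an unadjusted p-value (0.0390, adjusted p = 0.533 by limma). Regulators lower in ZA (main value 1) were 2 with centring, with quantile normalization, with the replicate block and with voom, 4 without a filter, and 0 with a filter of a mean FPKM of 5. All genes with an adjusted p-value under 0.05 (main value 36) were 1 without a filter, 1 without a trend, 20 with quantile normalization, 78 with the replicate block and 132 with voom. The difference in summed Rab FPKM (main value -0.203%) was -1.06% with centring. The cause was not tested in any of these.

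Leaving out each library in turn gave 0 to 3 Rab genes higher and 1 to 2 lower at an unadjusted p-value, 0 higher being without ZA replicate 3. Of all 9800 genes tested, 557 to 848 were higher and 364 to 550 lower in these fits. Between 7 and 13 Rab genes had groups apart (16.3% to 30.2%, beside 27.1% to 32.5% of all genes). The regulators were 5 to 9 higher and 0 to 2 lower, and all genes with an adjusted p-value under 0.05 were 0 to 25, 0 being without ZA replicate 2. The median log2 fold change of the members was 0.0004 to 0.0110, positive where that of all 6 libraries was -0.0010, and the difference in summed FPKM was -0.441% to 0.161%, positive without Ctrl replicate 3.

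Whether same-numbered libraries were handled together is not given in the sources used here. Their deviations from the group means correlated at 0.284, 0.0393 and 0.280. Each Ctrl library correlated best with the ZA library of its own number. Over all genes, 78 passed the adjusted threshold with the replicate block and 36 without it. A shared origin of same-numbered libraries was not tested, and the main fit leaves it out. With the replicate block 3 Rab genes were higher and 3 lower at an unadjusted p-value, and 0 passed the adjusted threshold. Of all 9800 genes tested, 905 were higher and 600 lower at an unadjusted p-value in this fit. Of the markers, 3 of 7 macrophage genes were then higher and 5 of 6 neutrophil and progenitor, 2 of 3 osteoclast and 4 of 4 stromal genes lower at an unadjusted p-value.

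Across 48 single genes and 661 values under alternatives, 650 differed from the reported fold change by less than the SD within groups, and 30 changed sign, none of them among the 4 members above. The values with another minimum level, without a trend and with the replicate block are among the 661 and could not differ from the reported fold change. Depth limits the members near 1 FPKM, such as Rab38, and those below.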
